A study of Mus musculus with 4 samples.

Results

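The genes described here write, copy, oxidize, excise or read methylated cytosine in DNA, and were followed in splenic regulatory T (Treg) cells with and without Setd2. They were the rows of the expression table named Dnmt1, Dnmt3a, Dnmt3b, Uhrf1, Tet1, Tet2, Tet3, Tdg and Mbd2. All 9 were found among the 24087 genes listed. The KO mice were Foxp3Cre-YFPSetd2f/f and the CTRL mice were littermates, Foxp3Cre-YFPSetd2f/+, on C57BL/6, and per the study's methods 6 to 12 weeks old unless stated otherwise. Both genotypes carried the Foxp3Cre-YFP allele, and the CTRL Treg cells had 1 floxed Setd2 allele as well, so the comparison was between loss of both alleles and loss of 1. Cre was driven from Foxp3, the lineage factor of Treg cells, which is meant to confine deletion to them. Each genotype had 2 libraries, and each library was made from about 1000000 CD3+CD4+YFP+ spleen cells pooled from 2 mice.

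DNA methylation at CpG sites is set down de novo by DNMT3A and DNMT3B and copied to the new strand after replication by DNMT1, which UHRF1 brings to hemimethylated DNA. The TET enzymes oxidize methylated cytosine, and TDG cuts out the oxidized bases so that repair can restore cytosine, while MBD2 binds methylated CpG and carries the NuRD corepressor complex. H3K36 methylation, whose trimethyl form is placed by SETD2, is a chromatin mark that the DNMT3 enzymes can bind. In Treg cells, TET2 and TET3 are known for keeping the conserved noncoding enhancers of Foxp3 free of methylation.

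The libraries summed to at least 29988267 to 32686764 reads, as recovered from the steps of the FPKM values (read pairs per length of gene and size of library), and to 465594 to 472830 FPKM. The CTRL 1 library listed 19100 genes above 0 and the other libraries 15913 to 16410. Of the 5 Treg cell markers, with Foxp3, Il2ra and Ctla4 among them, none passed the test and their summed level was 1068 to 1137 FPKM in CTRL and 1089 to 1178 FPKM in KO. B cell markers were present in all libraries, none was at 0 and none passed the test. The 7 genes summed to 1112 and 789 FPKM in CTRL and to 1572 and 1354 FPKM in KO. Ighm passed with limma-voom on recovered reads. The myeloid markers summed to 172 and 102 FPKM in CTRL and to 237 and 84.8 FPKM in KO. Within each genotype, the B cell and myeloid sums were both higher in replicate 1. Of all 27 marker genes tested 0 were called by limma, with 6 at an unadjusted p under 0.05. At that unadjusted p, 1855 of all 11399 genes tested were higher and 2099 lower. Setd2 itself read 23.4 and 25.3 FPKM in CTRL and 21.3 and 19.5 FPKM in KO. That was a difference of -0.24 ± 0.076 (SE) on the log2(FPKM + 1) scale, not past the threshold (limma, adjusted p = 0.0970). These are values of the whole gene, so reads from exons outside the deleted part were counted too.

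For the comparison, limma was fitted to log2(FPKM + 1) of the 11399 genes with at least 1 FPKM in at least 2 libraries, and a gene was called at a Benjamini-Hochberg adjusted p under 0.05. All 9 genes entered the fit. Uhrf1 rose and Tet3 fell in KO, and the other 7 genes did not pass the threshold. Of all genes tested, 5.1 percent were called higher, 4.65 percent lower and 9.75 percent in either direction, against 22.2 percent (2 of 9) of these genes. For 6 of the 9 genes the libraries of the genotypes did not overlap, which was also the case for 64.5 percent of all genes tested, so that arrangement was common with 2 libraries a group. The exact permutation test of 2 against 2 libraries cannot give a two-sided p below 0.333. The median difference was 0.059 on the log2(FPKM + 1) scale over the 9 genes and -0.022 over all genes tested. At an unadjusted p under 0.05 (limma), 1855 of the 11399 genes were higher and 2099 lower. Counts at that p in the gene lists below are to be read beside this background, since such values were common.

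**Figure D1:**
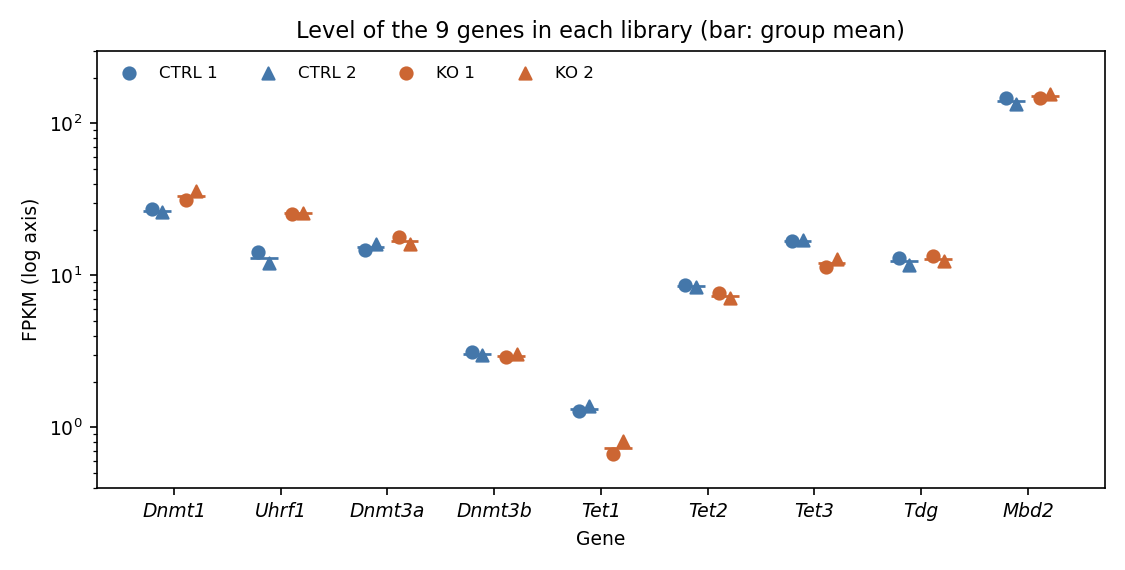
FPKM (log axis) of each of the 9 genes in the CTRL (blue) and KO (orange) libraries, with circles for replicate 1, triangles for replicate 2 and a bar at each group mean. The genes span 0.664 FPKM (Tet1, KO 1) to 155 FPKM (Mbd2, KO 2), and Uhrf1 has the widest gap between genotypes, from 12 and 14.1 to 25.3 and 25.8 FPKM.

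**Figure D2:**
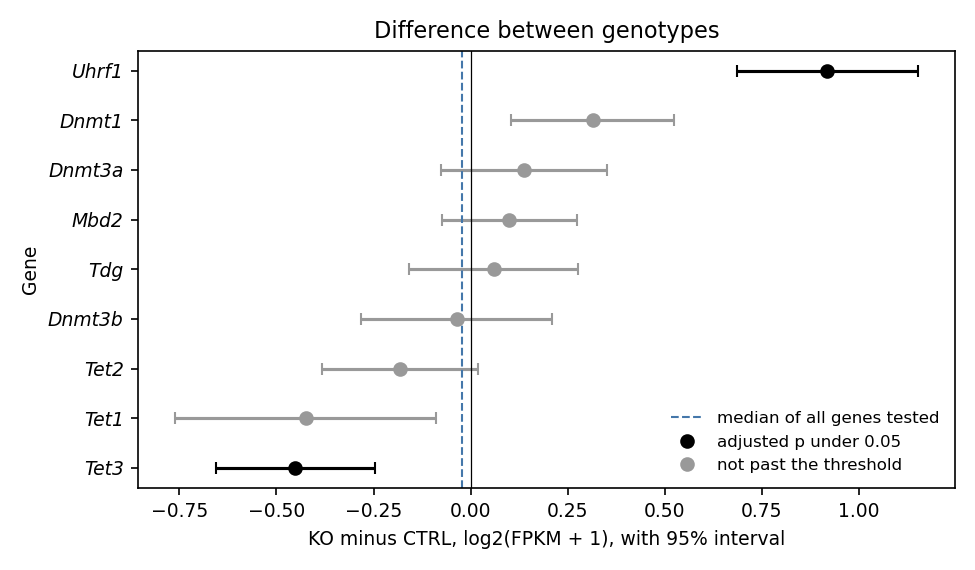
Difference between KO and CTRL on the log2(FPKM + 1) scale for each gene, with its 95% interval from the limma fit. Black points passed an adjusted p under 0.05 and gray points did not, and the dashed line is the median of all genes tested (-0.022). The interval of Uhrf1 runs from 0.69 to 1.15 and that of Tet3 from -0.66 to -0.25.

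Uhrf1 (ENSMUSG00000001228, chr17:56303321-56323486, plus strand, GRCm38) encodes the factor that reads hemimethylated CpG and brings DNMT1 to the replication fork. It was at 14.1 and 12 FPKM in CTRL against 25.3 and 25.8 FPKM in KO. Both KO libraries lay above both CTRL libraries, and the KO pair lay closer together than the CTRL pair. The means were 13.1 ± 1.51 and 25.5 ± 0.327 FPKM (SD, n = 2), a ratio of 1.95, and the difference was 0.92 ± 0.091 (SE) on the log2(FPKM + 1) scale (limma, adjusted p = 0.0306). The values rest on at least 1518 to 3334 reads a library, as recovered. In bulk RNA, more cells that express a gene and more RNA per cell cannot be told apart. Of the stretches of 100 bases in its transcripts, 5.53% also occur in transcripts of another gene, Gm5648. The call was lost with any 1 of the 4 libraries left out, where the difference was 0.81 to 1.03 and the adjusted p 0.0909 to 0.140.

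Dnmt1 (ENSMUSG00000004099, chr9:20907209-20959888, minus strand) encodes the maintenance methyltransferase. It was the most abundant of the methyltransferases, at 27.1 and 26.3 FPKM in CTRL against 31.2 and 35.7 FPKM in KO. The KO libraries lay above the CTRL libraries, and KO 2 was the highest of the 4. The difference of 0.31 ± 0.082 (SE) on the log2(FPKM + 1) scale, with a 95% interval of 0.11 to 0.52, did not pass the threshold (limma, adjusted p = 0.0687). With limma-voom on the recovered reads it did, at 0.32 (adjusted p = 0.0448). Uhrf1 relative to Dnmt1 was 0.521 and 0.457 in CTRL and 0.809 and 0.720 in KO, so that within each KO library the level of Uhrf1 stood closer to that of Dnmt1.

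Of the 9 genes, 8 had promoters in the RefSeq table for GRCm38.p6, with 13 start sites in all. In the 250 bases before each start, 3 forms of the E2F motif were looked for on both strands, TTTCGCGC, TTTCCCGC and TTTGGCGC. TTTCGCGC occurred once before a start of Uhrf1 and once before a start of Dnmt1, the maintenance pair. Windows of other starts of these genes held no match, that at chr17:56303337 for Uhrf1 and those at chr9:20959888 and chr9:20952979 for Dnmt1. These starts all lie upstream of the matches, so each match is downstream of another annotated start of its gene. The other forms occurred in none of the 13 windows, and no motifs overlapped. Over all promoters, 84 of 32851 windows (0.256%) held TTTCGCGC and 504 (1.53%) any of the 3 forms. Over the promoters of genes tested, 62 of 11257 (0.551%) held TTTCGCGC and 343 (3.05%) any form. Of 26 windows of S phase genes, 2 held TTTCGCGC and 5 any form, and of 18 windows of G2 and M phase genes 1 held TTTCGCGC and none another form. The sequences with the motif are shown on the strand of the gene, with the motif in capitals. The Uhrf1 window (chr17:56304063-56304312, plus strand) lies within the annotated gene and in none of its exons, and its motif spans bases -185 to -178 from the start. Of the Dnmt1 window, only 30 bases are shown (chr9:20952824-20952853, minus strand), because 166 of its 250 bases fall in an exon of another transcript of the gene. Its motif, at -219 to -212, lies on the opposite strand and therefore reads GCGCGAAA.
Uhrf1: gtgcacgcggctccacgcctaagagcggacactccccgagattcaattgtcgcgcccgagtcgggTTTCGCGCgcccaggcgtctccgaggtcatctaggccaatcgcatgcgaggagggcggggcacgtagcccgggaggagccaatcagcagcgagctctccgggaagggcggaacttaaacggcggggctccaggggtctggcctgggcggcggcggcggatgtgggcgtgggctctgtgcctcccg
Dnmt1: ggtttccgcgcGCGCGAAAaagccggggtc
A match of letters is a description and not a binding site. The 13 windows also differed in CpG content, from 2 CpG in a Dnmt1 window to 51 in that of Tet2. The Uhrf1 window shown held 30 and the window of Tet3, the gene that fell, held 17.

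The de novo methyltransferases did not pass the threshold. Dnmt3a (ENSMUSG00000020661, chr12:3806007-3914443, plus strand) was at 14.6 and 16.0 FPKM in CTRL against 17.7 and 16.1 FPKM in KO. The KO libraries lay above, although KO 2 and CTRL 2 were nearly equal, and the difference of 0.14 ± 0.083 (SE) had a 95% interval of -0.076 to 0.35 on the log2(FPKM + 1) scale (limma, adjusted p = 0.298). Its exons overlap those of the antisense gene Dnmt3aos, and the use of strand in counting was not stated, so reads of the pair cannot be told apart. Dnmt3b (ENSMUSG00000027478, chr2:153649450-153687730, plus strand) was low, at 3.14 and 2.98 FPKM in CTRL against 2.90 and 3.02 FPKM in KO. The groups overlapped, with a difference of -0.036 ± 0.096 (SE) on the same scale and a 95% interval of -0.28 to 0.21 (limma, adjusted p = 0.820). Dnmt3b shares 4.47% of its 100-base stretches with Dnmt3c. Trdmt1, a family member that methylates transfer RNA, read 5.26 and 4.66 FPKM in CTRL and 3.91 and 4.59 FPKM in KO (limma, adjusted p = 0.295). Dnmt3l, the catalytically inactive partner of the DNMT3 enzymes, was at most 0.113 FPKM in any library and was not tested. By share of the summed Dnmt level, Dnmt1 made up 59.3 ± 1.69% in CTRL and 62.7 ± 3.51% in KO, Dnmt3a 33.9 ± 1.98% and 31.7 ± 3.46%, and Dnmt3b 6.80 ± 0.289% and 5.55 ± 0.0519% (SD, n = 2).

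All 3 TET genes read lower in both KO libraries than in both CTRL libraries, and Tet3 passed the test. Tet3 (ENSMUSG00000034832, chr6:83362373-83459084, minus strand), the dioxygenase with the highest level of the family here, was at 16.7 and 17.0 FPKM in CTRL against 11.4 and 12.8 FPKM in KO. The CTRL libraries were close to each other and the KO libraries lay farther apart, and the groups did not overlap. The means were 16.9 ± 0.190 and 12.1 ± 1.02 FPKM (SD, n = 2), a ratio of 0.717, and Tet3 fell by 0.45 ± 0.080 (SE) on the log2(FPKM + 1) scale (limma, adjusted p = 0.0405). The noncoding gene B230319C09Rik lies within Tet3 on the other strand, and their exons do not overlap. The call was lost with any 1 of the 4 libraries left out, where the difference was -0.53 to -0.37 and the adjusted p 0.0992 to 0.154.

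Tet2 (ENSMUSG00000040943, chr3:133463679-133545139, minus strand), the family member that lacks a CXXC domain of its own, was at 8.57 and 8.37 FPKM in CTRL against 7.66 and 7.07 FPKM in KO. Both KO values were lower, and the difference of -0.18 ± 0.078 (SE) on the log2(FPKM + 1) scale did not pass (limma, adjusted p = 0.175), with a 95% interval of -0.38 to 0.020. The exons of Tet2 overlap those of the antisense gene Gm42567, which was not among the genes listed. With the use of strand not stated, reads of that pair cannot be told apart. Tet1 (ENSMUSG00000047146, chr10:62804570-62908996, minus strand), best known from embryonic stem cells, was the lowest of the 9 genes, at 1.29 and 1.37 FPKM in CTRL against 0.664 and 0.809 FPKM in KO. The KO libraries held at least 330 and 404 recovered reads of Tet1 and the CTRL libraries at least 594 and 669. The FPKM ratio of KO to CTRL was 0.554, the lowest of the 9 genes. The log2(FPKM + 1) scale understates the change of a gene this low, and on it the difference was -0.42 ± 0.13 (SE) and did not pass (limma, adjusted p = 0.0936). With a pseudocount of 0.1 it was -0.78 (adjusted p = 0.103), and with limma-voom on the recovered reads -0.86 (adjusted p = 0.0167).

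Across the table, the difference between genotypes moved with gene length. Genes with exons of over 12000 bases, 561 in number, had a median difference of -0.14 on the log2(FPKM + 1) scale, against 0.043 for the 1974 genes under 2000 bases. The exons of Tet1, Tet2 and Tet3 cover 15457, 16870 and 16695 bases and those of Dnmt3a 16642. After that trend was removed, the difference was -0.32 for Tet3 (limma, adjusted p = 0.0771), -0.30 for Tet1, -0.045 for Tet2 and 0.27 for Dnmt3a, none of which passed. The part of length in these differences was not tested.

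Set side by side per length, the family sums moved apart. The summed level of Dnmt1, Dnmt3a and Dnmt3b was 44.8 and 45.2 FPKM in CTRL and 51.9 and 54.8 FPKM in KO. The summed level of Tet1, Tet2 and Tet3 was 26.6 and 26.7 FPKM in CTRL and 19.7 and 20.7 FPKM in KO. The ratio of the sums was 1.69 in both CTRL libraries and 2.64 and 2.65 in the KO libraries. The ratio was chosen with these values known and is given as a description, with no test. The trend with gene length was not removed from these sums. The exons of Dnmt1 and Dnmt3b cover 7377 and 5106 bases, fewer than those of each Tet gene. These are mRNA levels and give no measure of methylation. Within the TET sum, Tet3 made up 63.2 ± 0.452% in CTRL and 59.8 ± 2.96% in KO, Tet2 31.8 ± 0.659% and 36.5 ± 3.34%, and Tet1 4.98 ± 0.207% and 3.64 ± 0.382% (SD, n = 2). The shares of the genotypes did not overlap for any of the 3 genes, and the KO pair was the more spread of the pairs.

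**Figure D3:**
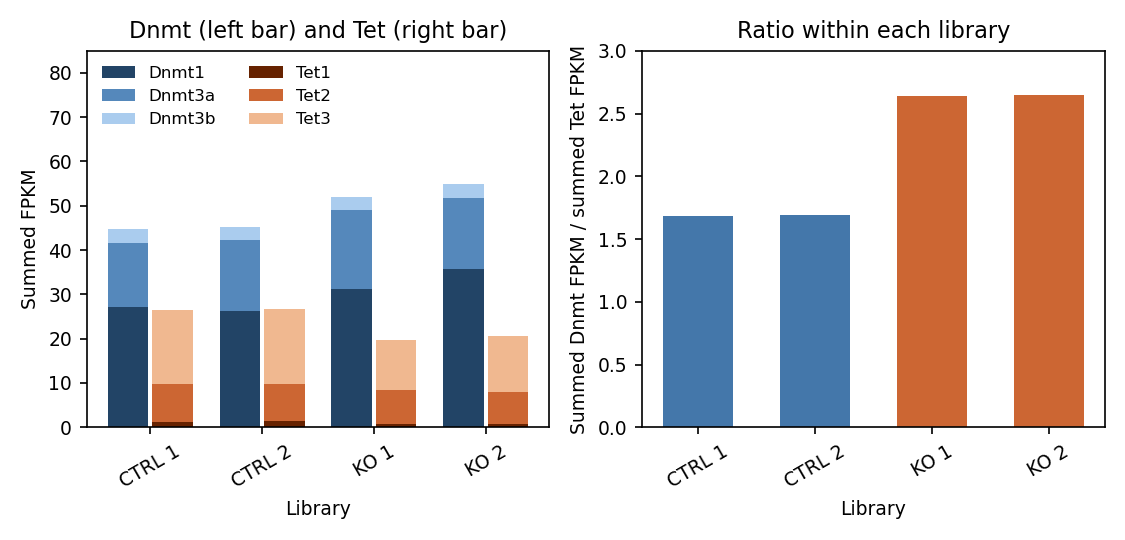
Left, FPKM of the 3 Dnmt genes and of the 3 Tet genes stacked for each library. Right, the summed Dnmt FPKM divided by the summed Tet FPKM in each library, which is 1.69 in both CTRL libraries (blue) and 2.64 and 2.65 in the KO libraries (orange). The trend with gene length was not removed.

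Tdg (ENSMUSG00000034674, chr10:82629828-82650799, plus strand), the glycosylase downstream of the TET enzymes, was at 13.0 and 11.7 FPKM in CTRL against 13.4 and 12.4 FPKM in KO. The groups overlapped, and the difference of 0.059 ± 0.085 (SE) on the log2(FPKM + 1) scale had a 95% interval of -0.16 to 0.28 (limma, adjusted p = 0.663). Tdg is uncertain, because 27.3% of its 100-base stretches also occur in Tdg-ps, Gm9855, Gm5597 or Glt8d2, and because its exons overlap those of Glt8d2 on the other strand. Mbd2 (ENSMUSG00000024513, chr18:70568189-70626131, plus strand), the reader, was the most abundant of the 9 genes and of the 10 methyl-CpG readers listed. It was at 147 and 135 FPKM in CTRL against 146 and 155 FPKM in KO. KO 1 lay between the CTRL libraries, and the difference of 0.10 ± 0.068 (SE) had a 95% interval of -0.074 to 0.27 on the same scale (limma, adjusted p = 0.350).

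In CTRL the order of levels per length was Mbd2, Dnmt1, Tet3, Dnmt3a, Uhrf1, Tdg, Tet2, Dnmt3b and Tet1. Only the neighbors Uhrf1 and Tdg overlapped between libraries. In KO, Uhrf1 stood in place 3 and Tet3 in place 6, and only the neighbors Tdg and Tet3 overlapped. The other 7 genes kept their order among themselves.

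The other genes of the pathway were taken from lists of the machinery around these enzymes, 87 genes of which 85 were listed and 79 tested. Of the 79, 4 were called higher and 2 lower, and their median difference was -0.016 on the log2(FPKM + 1) scale, close to that of all genes tested. With limma-voom on recovered reads, 4 of these pathway genes were called higher and 8 lower. Among the 8 other maintenance genes, 0 were called by limma or by limma-voom, with 4 at an unadjusted p under 0.05. Among all 11399 genes tested, 1855 were higher and 2099 lower at that p. Of the differences of the 8 maintenance genes, 4 were above 0 and 4 below. They ran from -0.25 for Dmap1, a DNMT1-binding protein, at 19.7 and 19.2 FPKM in CTRL against 15.5 and 17.0 FPKM in KO (limma, adjusted p = 0.0848), to 0.33 for Hells, a remodeler needed for maintenance methylation, at 10.2 and 8.22 FPKM in CTRL against 11.1 and 12.6 FPKM in KO (limma, adjusted p = 0.132). Pcna, the replication clamp, was the most abundant of that list at 222 and 194 FPKM in CTRL against 250 and 240 FPKM in KO (limma, adjusted p = 0.109).

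Among the partners of the TET enzymes, Cxxc5, a CXXC protein that binds unmethylated CpG and can recruit or restrain TET2, rose from 3.45 and 3.67 FPKM to 6.21 and 5.65 FPKM, a difference of 0.60 ± 0.093 (SE) on the log2(FPKM + 1) scale (limma, adjusted p = 0.0371). Ogt, the glycosyltransferase that binds TET proteins and the most abundant of that list, was at 84.6 and 73.0 FPKM in CTRL against 50.4 and 61.3 FPKM in KO. Its difference of -0.49 ± 0.12 (SE) did not pass (limma, adjusted p = 0.0623). With limma-voom on recovered reads Ogt was called lower. Of the 17 repair and deamination genes tested, Tdg included, only Apobec1, a cytidine deaminase best known for editing RNA, was called by limma. It rose from 14.9 and 15.2 FPKM to 25.3 and 24.9 FPKM (0.70 ± 0.059, SE; limma, adjusted p = 0.0299). With limma-voom Apobec1 was again called, and 1 other gene of that list was lower.

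Of the 9 methyl-CpG readers tested, 0 were called by limma, with 3 at an unadjusted p under 0.05, and 1, Zbtb4, fell with limma-voom. In the NuRD complex that MBD2 carries, Mta2 was called among 12 genes, at 102 and 102 FPKM in CTRL against 120 and 121 FPKM in KO (0.24 ± 0.049, SE; limma, adjusted p = 0.0496). That call was lost under 7 of the 9 other settings that kept all libraries. Mat2a, which makes the methyl donor S-adenosylmethionine, fell from 58.0 and 56.8 FPKM to 41.5 and 43.5 FPKM (-0.42 ± 0.056, SE; limma, adjusted p = 0.0351), as 1 of 21 genes of methyl donor and 2-oxoglutarate supply. Of the 10 genes on the histone side, Setd2 included, Kmt2a, an H3K4 methyltransferase, fell from 37.1 and 38.7 FPKM to 26.8 and 27.3 FPKM (-0.47 ± 0.058, SE; limma, adjusted p = 0.0346). Kdm2b, an H3K36 demethylase that binds CpG islands, rose from 19.2 and 19.95 FPKM to 26.0 and 25.0 FPKM (0.36 ± 0.062, SE; limma, adjusted p = 0.0395). With no variance trend the Kdm2b call was lost (adjusted p = 0.0536).

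Genes that depend on the methylation state were looked at as well. Of the 6 genes known to be demethylated in the Treg lineage, 0 were called by limma or by limma-voom, with 2 at an unadjusted p under 0.05. Foxp3 was at 121 and 140 FPKM in CTRL against 112 and 119 FPKM in KO (limma, adjusted p = 0.238). The cells of every library were sorted on YFP driven from Foxp3. Cells without Foxp3 expression were thus largely left out, and its level here cannot show such a loss. Of 16 genes listed as germline genes silenced by promoter methylation, 15 were too low to test. The one tested, Tuba3a, fell from 7.72 and 6.43 FPKM to 4.15 and 3.61 FPKM (limma, adjusted p = 0.0380). Since it was expressed in CTRL, it was not silent in these cells and gives no reading of such silencing. Of 19 imprinted genes, 7 were tested and 0 were called by limma, with 2 at an unadjusted p under 0.05 and 1, Airn, lower with limma-voom.

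Uhrf1 and Dnmt1 are transcribed in dividing cells, and cell cycle genes were set beside them. Of 27 S phase genes, 19 rose and 0 fell, with all 27 differences above 0 and a median of 0.56 on the log2(FPKM + 1) scale. The highest differences were those of Cdc6 (0.97) and Mcm5 (0.84), helicase loading and helicase genes, followed by Mcm3 (0.82) and E2f1 (0.76). The lowest that passed were those of Mcm2 (0.38), Mcm7 (0.49), Fen1 (0.51) and Tk1 (0.51). Of 22 G2 and M phase genes, 15 rose and 0 fell, with a median of 0.87 (9 passed with no variance trend, and 13 of the S phase genes). With a library left out, at most 1 gene of the whole table was called in each direction. The named G2 and M phase genes ranged from Cenpf (0.54), Mki67 (0.67), Ccnb2 (0.73) and Cenpe (0.76) to Cdc20 (1.04), Cdk1 (1.06), Plk1 (1.08) and Aurka (1.12).

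The S phase genes summed to 498 and 436 FPKM in CTRL and to 706 and 713 FPKM in KO. The difference of Uhrf1 (0.92) lay above the median of both lists and that of Dnmt1 (0.31) below both. Per 100 FPKM of the S phase genes, Uhrf1 was at 2.84 and 2.76 in CTRL and at 3.58 and 3.61 in KO. On the same measure Dnmt1 was at 5.45 and 6.03 in CTRL and at 4.43 and 5.01 in KO. Relative to the S phase genes, Uhrf1 was thus higher and Dnmt1 lower in both KO libraries. The G2 and M phase genes summed to 320.2 and 231 FPKM in CTRL and to 524 and 519.9 FPKM in KO. Per 100 FPKM of these, Uhrf1 was at 4.41 and 5.20 in CTRL and at 4.82 and 4.95 in KO, so that the genotypes overlapped. Dnmt1 was at 8.47 and 11.4 in CTRL and at 5.96 and 6.87 in KO, again lower in both KO libraries. The B cell markers, which summed higher in both KO libraries, moved with these genes as well, and neither their part nor that of the cell cycle genes in the level of Uhrf1 was tested.

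**Figure D4:**
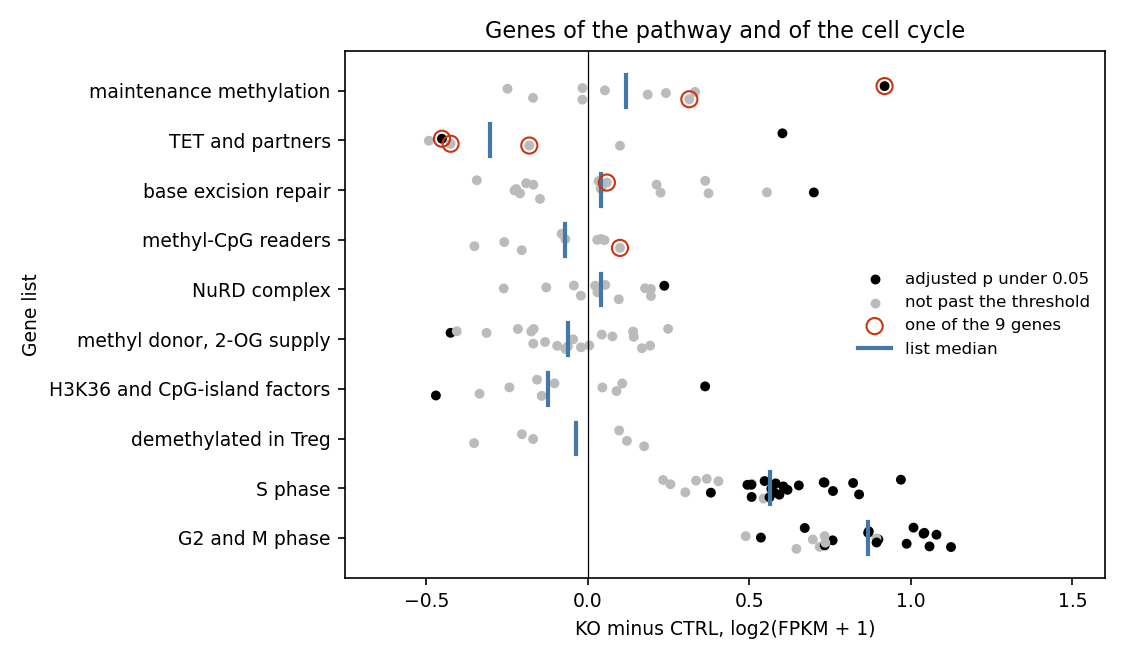
Difference between KO and CTRL on the log2(FPKM + 1) scale for each gene tested (point) of each list, with the list median as a blue bar. Black points passed an adjusted p under 0.05 and red circles mark those of the 9 genes that are in a list. The S phase and G2 and M phase lists lie wholly above 0, with medians of 0.56 and 0.87, while the list of TET genes and partners has 4 of its 6 genes below 0.

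Likeness of pattern was measured as the Euclidean distance over the 4 libraries between log2(FPKM + 1) values, each gene centered on its own mean. Closest to Uhrf1 were Mxd3, a MAX-binding repressor of the MYC network (distance 0.058), and Kif18b, a mitotic kinesin (0.073), and only 5 genes came within 0.1. Closest to Dnmt1 were Cdkn2d, an inhibitor of CDK4 and CDK6, and Stk39, with 130 genes within 0.1. Closest to Tet3 were Ttc32 and Etnk1 (113 within 0.1), to Tet1 Heca and Ears2 (158), and to Tet2 Nxf1 and Ginm1 (605). For Dnmt3a they were Nedd9 and Sox12 (342), for Dnmt3b Yy1 and Mpp7 (1209), for Mbd2 Gng2 and Ppp2r1b (558), and for Tdg Sumo3 and Tango2 (381). Genes that differ little between libraries lie near to many others, which is why the number within 0.1 is given.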

How the data were processed

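Poly(A) RNA of sorted splenic Treg cells, captured with oligo(dT), was read as 150 bp pairs. Per the labels and methods, the authors mapped reads to mm10 (GRCm38) with HISAT2 2.2.1, counted them with featureCounts 2.0.1, and used edgeR 3.34.0 for their own comparison. They deposited FPKM for 24087 genes. The gene length used, the annotation version, the strand setting and the treatment of reads with several matches are not given in the sources used here. The control columns, named WT and a number, were read as the CTRL libraries of that number. Whole numbers that fit were found for 19887 of the 19888 genes above 0, within 1e-05 of a whole read plus 3e-09 per read. The smallest numbers that fit the ratios between libraries were taken as the reads. The true reads of a gene can therefore be a common multiple of those given, which entered limma-voom. A gene above 0 in only 1 library fits by construction, so the share of genes with a fit does not check the numbers. Since deposited values were FPKM, limma 3.58.1 (R 4.3.3, variance trend) was fitted to log2(FPKM + 1), two-sided, after testing on simulated data. Positions and exons came from GENCODE vM21. The genes, lists and tests were chosen with earlier results of these data known. Named list genes are those that passed, or the 4 highest and 4 lowest where over 8 passed, and, for some lists, the most abundant. Dmap1, Hells, Foxp3, Il2ra, Dnmt3l, Ighm, Zbtb4 and Airn were added after their values were seen. Tried alternatives changed the pseudocount, filter, scaling, variance model, block, test and libraries.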

Additional observations from a re-analysis of the deposited data

How the results depend on the processing

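Uhrf1 and Tet3 kept their direction in all 13 other settings tried, and no setting turned the direction of another of the 9 genes except Tdg, which ranged from -0.016 (without CTRL replicate 2) to 0.13 with 1 library left out. With no filter on low values, 0 genes were called higher and 0 lower, so 0 of the 9 in each direction (limma, adjusted p 0.0860 for Uhrf1 and 0.0930 for Tet3) among 19888 genes tested, with 2212 higher and 2251 lower at an unadjusted p under 0.05. With no variance trend, 315 genes were higher, and 0 of the 9 were lower (Tet3, adjusted p = 0.0533). Limma-voom on recovered reads called 1024 genes lower, and 2 of the 9 higher (Uhrf1 and Dnmt1) and 2 lower (Tet3 and Tet1). Removing the exon length trend, chosen after seeing the data, left 382 genes higher, 300 lower and 0 of the 9 lower. Leaving out 1 library left 0 to 1 genes higher, 0 to 1 lower and 0 to 0 of the 9 in either direction, with 1342 to 1423 higher and 1292 to 1621 lower at an unadjusted p under 0.05 and fewer samples in the fit. The cause of the other changes was not tested. With the replicate block, 968 genes were higher and 805 lower, with the same 1 and 1 of the 9. By the labels, the libraries share only a number (Pearson 0.342 and Spearman 0.055 between deviations of same-numbered libraries, across genes). The B cell and myeloid marker sums were higher in replicate 1 of both genotypes, and the reason was not tested. Dnmt3b and Tet1 were not tested at a mean FPKM above 5. Of the calls, 52.3 percent were higher, against 58.3 percent with median-ratio scaling and 46.8 percent at equal FPKM sums. With 2 libraries a group, differences of the size of Dnmt1 and Tet1 lay near the threshold.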
